A study of Mus musculus with 4 samples.

Results

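The S100 proteins, the annexins, vimentin and galectin-3 were examined here in the mouse left ventricle after ischemia/reperfusion (I/R), in young and aged mice. The group holds 10 genes (S100a1, S100a4, S100a6, S100a10, S100a11, Anxa1, Anxa2, Anxa5, Vim and Lgals3) out of 32285 genes in the count matrices. They were taken by gene symbol, and all 10 were found, each under 1 Ensembl gene. Their unique molecular identifiers (UMIs, each standing for 1 captured transcript) were summed over all deposited barcodes of a library and given as counts per 1000000 UMIs of that library (CPM).

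S100 proteins are small calcium-binding proteins with paired EF hands that act as dimers, and annexins are proteins that bind acidic phospholipids of the membrane when calcium rises. The families meet physically: S100a10 pairs with Anxa2, S100a11 can pair with Anxa1, and such complexes gather at sites of membrane damage. S100a1 is the S100 protein typical of heart muscle, whereas S100a4, S100a6, Vim and Lgals3 are best known in fibroblasts, endothelium and macrophages of injured tissue, which is the reason they are often read as injury genes.

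The study compared the left ventricle of male C57BL/6J mice in 4 conditions, with 1 10x Chromium 3' library each, so the comparisons ask how the ventricle responds to I/R and whether age changes that response. The young sham library came from wild-type mice of 3 to 5 months, and the young I/R library from wild-type mice of the same age whose left anterior descending artery was closed for 45 min and then reperfused for 24 h. The other pair, aged sham and aged I/R, came from wild-type mice of 24 to 26 months with the same handling. The labels call the sham mice healthy and unaltered and the RNA nuclear, where the methods describe sham mice and single cells. How many mice went into each library is not given in the sources used here. Since there was 1 library per condition, nothing could be tested. Intervals are 95% and cover counting error only, and a difference of at least 2-fold is counted in place of a call.

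The libraries held 91124 to 102883 barcodes, and their depth was low and uneven. Young sham was the shallowest with 25836175 UMIs and a median of 244 UMIs per barcode, and aged I/R the deepest with 66767829 UMIs and a median of 675. The nuclear RNA Malat1 took 7.34% of UMIs in young sham against 2.22% to 4.33% in the others, and Gm42418 took 19.4% in young I/R against 11.5% in young sham. Mitochondrial genes took 14.1% in young I/R and 15.6% in aged sham, and 10.0% and 9.98% in young sham and aged I/R, so they were high in the libraries where S100a1, S100a11 and Anxa5 were high, and their part in those values was not tested. How many of these barcodes hold a cell and how many hold only free RNA was not tested, so a barcode is not called a cell here. Pairs of libraries shared 2366 to 2843 barcodes, 2.41% to 2.83% of a library. The 18 cardiomyocyte markers summed to 91721 to 112019 CPM and the 17 endothelial, 18 fibroblast and 20 macrophage markers to 1901 to 2259, 1239 to 2172 and 387 to 649 CPM, with no marker of these lists at 0.

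The 5 S100 genes all lie on chromosome 3, which carries 14 S100 genes over 3.05 Mb in the GRCm38 annotation. S100a1 (chr3:90511034-90514392, minus strand), S100a4 (chr3:90603771-90606045, plus strand) and S100a6 (chr3:90612882-90624181, plus strand) belong to the first block of 12 genes. S100a11 (chr3:93520488-93526287, plus strand) and S100a10 (chr3:93555080-93564643, plus strand) form the second block of 2 genes, 2.82 Mb away. S100a1 stands head to head with S100a13, with 42 bases between the gene models. Anxa5 (chr3:36448923-36475894, minus strand) is on the same chromosome, whereas Anxa1 (chr19:20373428-20390944, minus strand), Anxa2 (chr9:69453620-69491795, plus strand), Vim (chr2:13573927-13582826, plus strand) and Lgals3 (chr14:47367751-47386160, plus strand) are elsewhere. Anxa2 overlaps Gm16144 on the other strand, which had 0 UMIs in every library, and Anxa1 overlaps 1500015L24Rik, which had 2 UMIs in young I/R and 0 in the others. S100a4 overlaps Gm42674 on the same strand, and S100a11 has a processed pseudogene, S100a11-ps, on chromosome 12. Neither of these was among the counted genes, and how reads shared with them were counted was not tested.

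The 250 bases before the RefSeq start (GRCm38.p6) are shown for Lgals3, S100a4 and Anxa2, the genes with the highest young I/R over young sham ratios, and for S100a11, since Anxa2 and S100a11 were the members with an AP-1 element. Capitals mark matches on either strand to the AP-1 element TGANTCA, the GC box GGGCGG and the TATA element TATAAA, where N is any base. Each reads 5′ to 3′ on the strand of the gene and ends at the base before the start.
Lgals3 (chr14:47373610-47373859, plus strand): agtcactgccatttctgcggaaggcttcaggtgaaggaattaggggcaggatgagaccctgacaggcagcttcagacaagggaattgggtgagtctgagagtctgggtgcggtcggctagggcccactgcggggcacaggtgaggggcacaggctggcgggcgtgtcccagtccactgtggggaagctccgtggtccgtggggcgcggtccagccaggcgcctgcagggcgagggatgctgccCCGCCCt
S100a4 (chr3:90603520-90603769, plus strand): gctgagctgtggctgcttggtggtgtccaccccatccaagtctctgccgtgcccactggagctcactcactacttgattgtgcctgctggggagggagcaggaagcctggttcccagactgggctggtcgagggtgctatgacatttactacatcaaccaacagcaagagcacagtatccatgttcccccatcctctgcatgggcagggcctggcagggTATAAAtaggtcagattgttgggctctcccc
Anxa2 (chr9:69453433-69453682, plus strand): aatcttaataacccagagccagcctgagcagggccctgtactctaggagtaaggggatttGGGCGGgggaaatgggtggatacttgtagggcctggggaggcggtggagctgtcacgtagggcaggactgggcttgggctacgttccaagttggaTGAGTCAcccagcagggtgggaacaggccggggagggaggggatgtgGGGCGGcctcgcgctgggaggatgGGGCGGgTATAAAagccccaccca
S100a11 (chr3:93520246-93520495, plus strand): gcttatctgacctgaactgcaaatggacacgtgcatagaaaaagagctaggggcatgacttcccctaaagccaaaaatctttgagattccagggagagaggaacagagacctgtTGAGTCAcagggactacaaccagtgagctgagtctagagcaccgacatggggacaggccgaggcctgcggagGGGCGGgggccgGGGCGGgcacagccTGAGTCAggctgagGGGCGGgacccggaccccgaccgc

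The 4 sequences differ in these elements, and no element is shared by all of them. The AP-1 element, the site of Fos and Jun dimers, begins 95 bases before the start of Anxa2 and 136 and 38 bases before that of S100a11. It was found in 2 of the 9 members with a promoter entry and in 6.73% of 32536 mouse promoters of the same length. The TATA element was found in 4 of 9 members (S100a4, Anxa1, Anxa2 and Vim) and in 12.3% of promoters, and the GC box in 3 of 9 (S100a11, Anxa2 and Lgals3) and in 33.0% of promoters. These are matches of letters only. They say nothing of which factors bind there.

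All 10 genes had their lowest level in young sham, though for S100a1, Anxa1 and Anxa5 the interval overlapped that of the next library. Over the 14491 genes with at least 100 UMIs in the 4 libraries, 13.8% were lowest there, and 63.4% were lowest in young I/R. When libraries were scaled by the median of gene-wise ratios instead of by total UMIs, young sham was still the lowest for all 10 members and for 25.9% of genes. In CPM the highest level was in young I/R for 4 members (S100a4, S100a6, S100a10 and Anxa2), where 9.72% of genes were highest. It was in aged sham for 4 (S100a1, S100a11, Anxa5 and Lgals3; 22.2% of genes) and in aged I/R for 2 (Anxa1 and Vim, 26.8% of genes). Under gene-wise scaling young I/R was above aged sham for S100a1 (767 and 672), S100a11 (34.5 and 27.7) and Lgals3 (23.4 and 18.4). With that scaling 33.0% of genes were highest in young I/R. Young sham was also the lowest library for 65 of 81 ribosomal protein genes, a set of short and abundant messenger RNAs that was added after the values were seen. Whether the depth or RNA makeup of that library plays a part was not tested. As sums over a whole library, fewer cells of a type and less RNA per cell cannot be told apart.

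**Figure D1:**
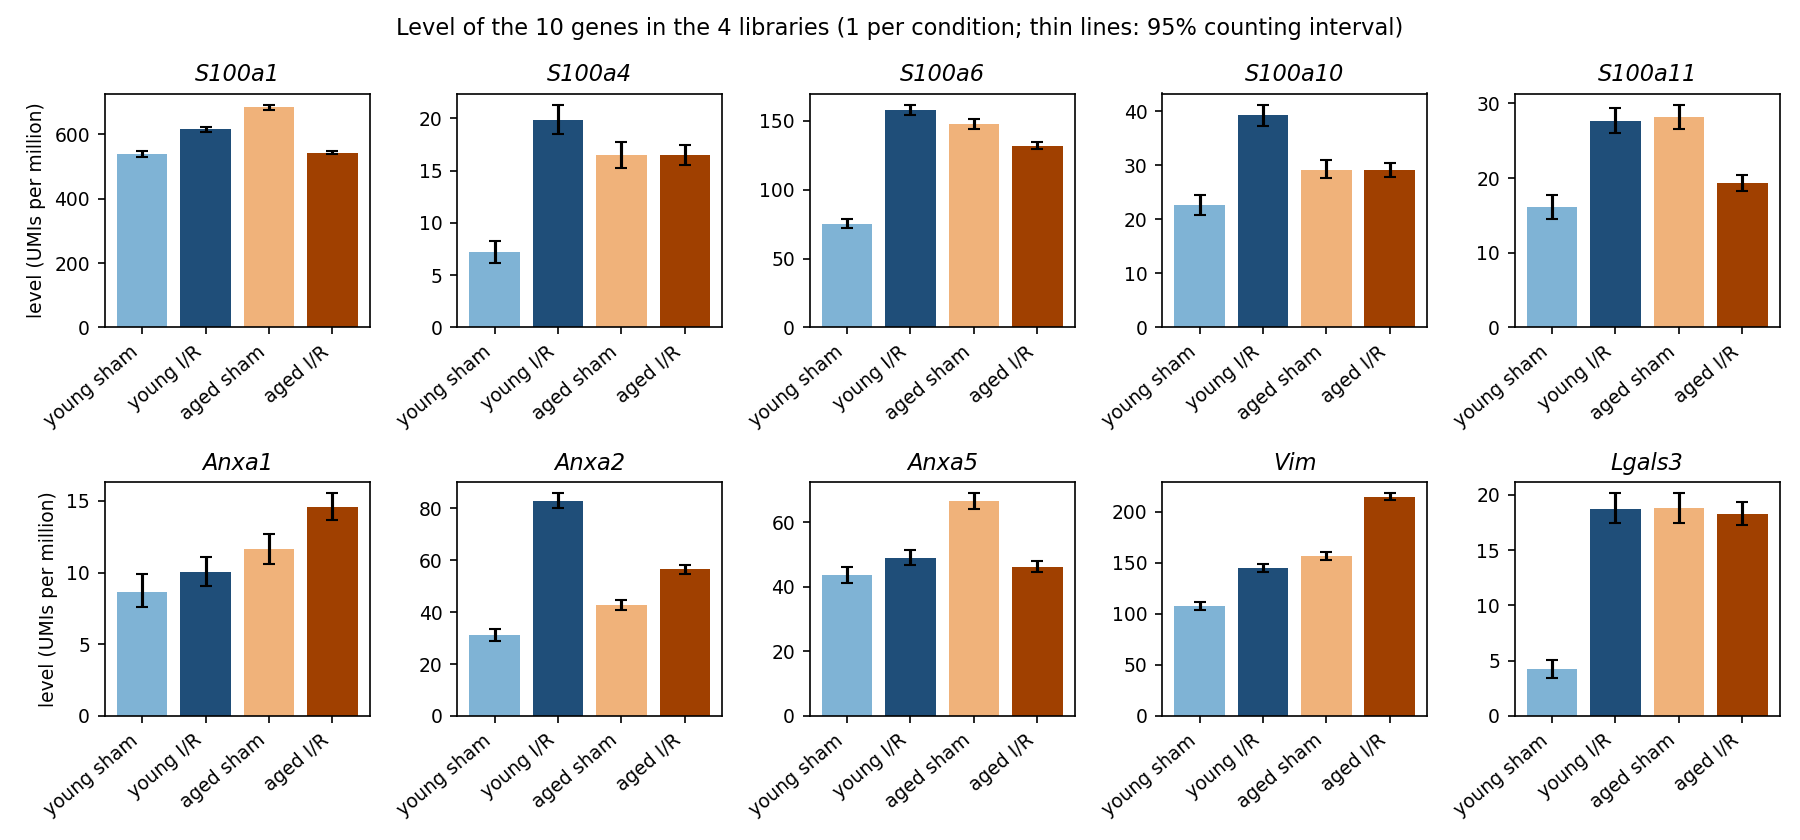
Level of each of the 10 genes (y axis, CPM, from 0) in the 4 libraries (x axis), with thin lines for the 95% Poisson counting interval and 1 library per condition. The young sham bar is the lowest in every panel, and Lgals3 stands at 4.22 there against 18.3 to 18.8 in the other libraries.

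S100a1, the heart muscle S100 protein that binds the ryanodine receptor and the calcium pump of the sarcoplasmic reticulum, was measured at 538 CPM (529 to 547) in sham and 615 (607 to 623) after I/R in the young pair, and at 684 (676 to 692) in sham and 543 (537 to 548) after I/R in the aged pair. In CPM the intervals of young sham and aged I/R overlapped and aged sham was the highest, whereas under gene-wise scaling young I/R was. Its log2 ratio, I/R over sham, was 0.19 (0.16 to 0.22) in young mice and -0.33 (-0.36 to -0.31) in aged mice. The neighbour S100a13 had 40.3, 52.0, 73.2 and 46.0 CPM in the same order of libraries (the young and then the aged pair, sham first), so it too was highest in aged sham. Of the S100a1 partners Ryr2, Atp2a2, Pln and Ttn, none was 2-fold higher or lower in young I/R and 1 was in aged I/R. Atp2a2, the calcium pump, had log2 ratios of 0.20 in young and -0.50 in aged mice. Ryr2, the ryanodine receptor, had ratios of -0.78 and 1.19, opposite in sign to S100a1 in both pairs.

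S100a4, which binds non-muscle myosin and marks motile fibroblasts and leukocytes, was measured at 7.20 CPM (6.20 to 8.31) in sham and 19.9 (18.5 to 21.3) after I/R in the young pair, and at 16.5 (15.3 to 17.8) in sham and 16.5 (15.5 to 17.5) after I/R in the aged pair. These rest on 186, 789, 682 and 1101 UMIs. The aged libraries overlapped, both stood above young sham and below young I/R, and the log2 ratio was 1.47 (1.23 to 1.70) in young and -0.00 (-0.14 to 0.14) in aged mice.

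S100a6 (calcyclin), found in fibroblasts and other proliferating cells, had 75.4 CPM (72.0 to 78.8), 158 (154 to 162), 148 (144 to 151) and 132 (129 to 135) in the same order of libraries. No 2 of the 4 intervals overlapped, and the order of the libraries was that of S100a4. Its log2 ratio, I/R over sham, was 1.07 (0.99 to 1.14) in young mice and -0.16 (-0.21 to -0.11) in aged mice.

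S100a10, the light chain of the annexin A2 tetramer, was at 22.6 CPM (20.8 to 24.5) in sham and 39.2 (37.3 to 41.2) after I/R in the young pair, and at 29.2 (27.6 to 30.9) in sham and 29.2 (27.9 to 30.5) after I/R in the aged pair. S100a11, an S100 protein active in membrane repair, had 16.1 (14.6 to 17.7), 27.7 (26.0 to 29.3), 28.2 (26.6 to 29.8) and 19.4 (18.3 to 20.4) CPM. They were close to each other in young I/R over young sham, with log2 ratios of 0.80 (0.66 to 0.94) and 0.78 (0.62 to 0.95). In aged mice they parted: the ratio was -0.00 (-0.11 to 0.10) for S100a10 and -0.54 (-0.66 to -0.43) for S100a11, the lowest of the 10 genes.

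Anxa2, the partner of S100a10 and a cell-surface receptor for plasminogen and its activator, was measured at 31.1 CPM (29.0 to 33.3) in sham and 82.9 (80.0 to 85.7) after I/R in the young pair, and at 42.6 (40.6 to 44.6) in sham and 56.4 (54.6 to 58.2) after I/R in the aged pair. It was higher after I/R at both ages, with a log2 ratio of 1.41 (1.30 to 1.53) in young and 0.41 (0.32 to 0.49) in aged mice. The 4 intervals were apart from each other. Its partner S100a10 had a lower ratio at both ages, and in aged mice the interval of S100a10 held 0.

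Anxa1, whose protein dampens neutrophil entry through formyl peptide receptors, was at 8.67 CPM (7.57 to 9.88) in sham and 10.0 (9.07 to 11.1) after I/R in the young pair, and at 11.6 (10.6 to 12.7) in sham and 14.6 (13.7 to 15.5) after I/R in the aged pair. Scaled by total UMIs, the 2 young libraries overlapped, and aged I/R was above all others. The log2 ratio of Anxa1 was 0.21 (-0.03 to 0.45) in young and 0.33 (0.17 to 0.49) in aged mice. Under gene-wise scaling it was 0.70 (0.46 to 0.94) in young and 0.23 (0.07 to 0.39) in aged mice. With that scaling aged I/R over young I/R was 0.10 (-0.07 to 0.27). Anxa5, known for binding phosphatidylserine on dying cells, had 43.6 (41.1 to 46.2), 49.0 (46.9 to 51.3), 66.5 (64.0 to 69.0) and 46.2 (44.6 to 47.9) CPM. Only aged sham stood clear of all the others, and the log2 ratio was 0.17 (0.06 to 0.28) in young and -0.52 (-0.60 to -0.45) in aged mice.

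Vim, the intermediate filament of fibroblasts, endothelium and leukocytes, was at 108 CPM (104 to 112) in sham and 145 (142 to 149) after I/R in the young pair, and at 156 (153 to 160) in sham and 215 (211 to 218) after I/R in the aged pair. Scaled by total UMIs, it was higher after I/R at both ages, with log2 ratios of 0.43 (0.37 to 0.50) in young and 0.46 (0.42 to 0.50) in aged mice, and higher in aged than in young mice in either condition.

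Lgals3 (galectin-3), a lectin of macrophages and activated fibroblasts, was measured at 4.22 CPM (3.46 to 5.09) in sham and 18.8 (17.4 to 20.2) after I/R in the young pair, and at 18.8 (17.5 to 20.1) in sham and 18.3 (17.3 to 19.3) after I/R in the aged pair. The young sham value rests on 109 UMIs, and the others on 744, 776 and 1221. Scaled by total UMIs, the 3 libraries other than young sham did not differ beyond counting error. Under gene-wise scaling Lgals3 was lower in aged I/R than in young I/R, with a log2 ratio of -0.48 (-0.61 to -0.35). Against aged sham it was -0.137 (-0.268 to -0.005) with that scaling. The log2 ratio was 2.15 (1.86 to 2.46) in young and -0.04 (-0.17 to 0.09) in aged mice. The young ratio was the highest of the 10 genes.

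Set side by side, 4 of the 10 genes were at least 2-fold higher after I/R in young mice (Lgals3, S100a4, Anxa2 and S100a6), where 2.43% of 12465 genes were. With gene-wise scaling it was 6, with S100a10 and S100a11 added. That scaling raises the ratio of every gene in this pair by 0.49, and the share of all genes under it is not given here. The median log2 ratio was 0.79 for the members and -0.44 for all genes, and all 10 lay above the latter. Ribosomal protein genes had a median of 0.41, and 7 members lay above it. None was 2-fold lower, where 22% of genes were. In aged I/R over aged sham 0 of 10 were 2-fold higher or lower, where 3.58% of 13722 genes were 2-fold higher and 1.5% lower. The members' median was -0.02 against 0.09 for all genes, with 3 intervals above 0 (Anxa1, Anxa2 and Vim), 4 below (S100a1, S100a6, S100a11 and Anxa5) and 3 holding 0. Of all genes, 42.4% had an interval above 0 in the aged pair and 28% below. In the young pair 9 of the 10 had an interval above 0 and 0 below, where 16.7% of genes were above and 64.4% below. Of 81 ribosomal protein genes, 80 were above 0 in the young pair and 23 in the aged pair.

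**Figure D2:**
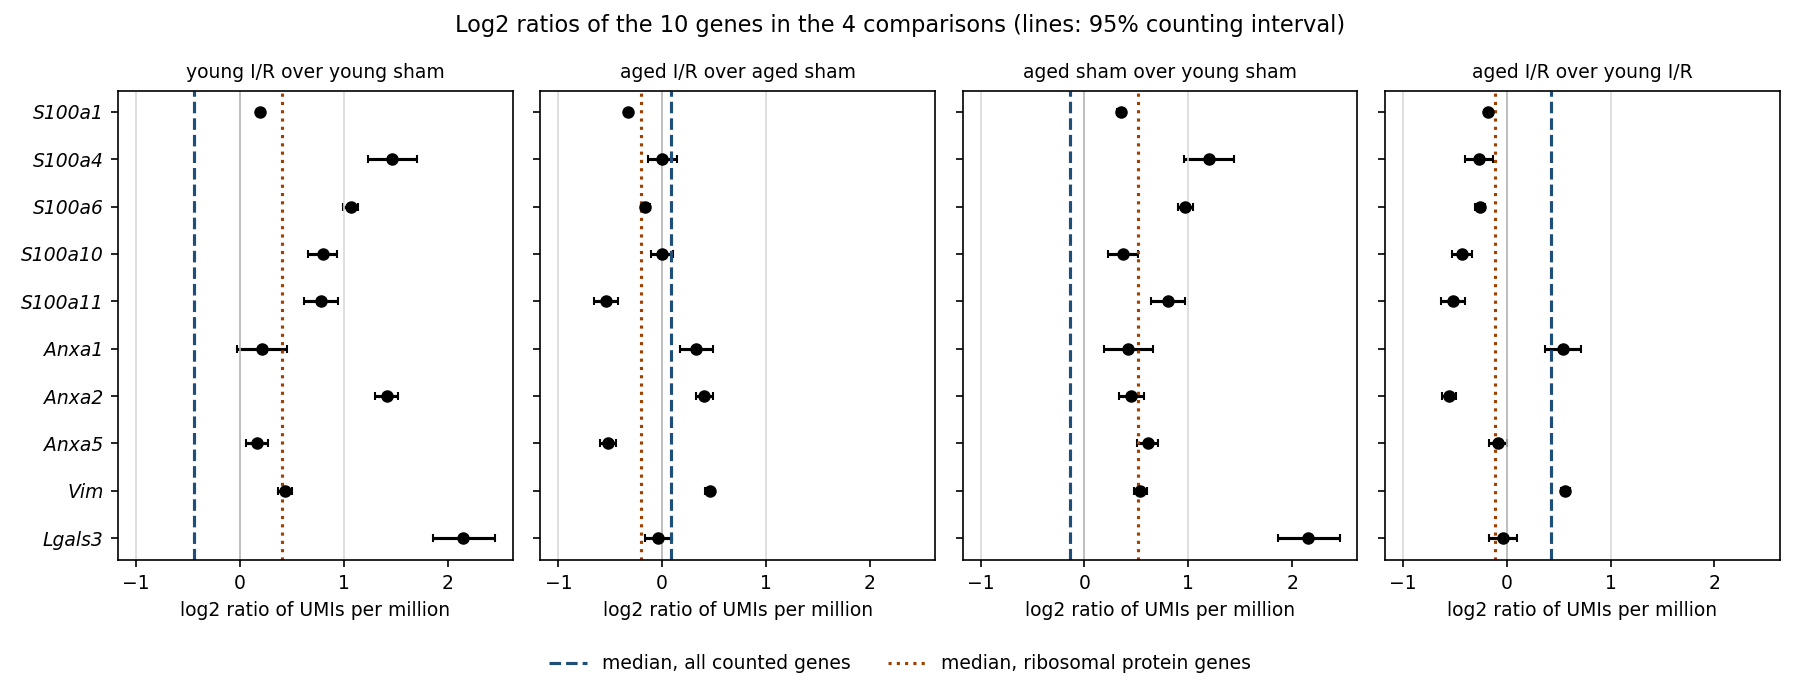
Log2 ratio of CPM (x axis) for the 10 genes (y axis) in the 4 comparisons, with lines for the 95% counting interval, a dashed line at the median of all counted genes and a dotted line at the median of 81 ribosomal protein genes. Lgals3 lies at 2.15 in young I/R over young sham and in aged sham over young sham, and at -0.04 in the comparisons with aged I/R.

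The difference of the I/R log2 ratios, aged minus young, uses all 4 libraries and was at or below -1 for 5 of the 10 genes: Lgals3 -2.19 (-2.51 to -1.87), S100a4 -1.47 (-1.73 to -1.20), S100a11 -1.32 (-1.52 to -1.12), S100a6 -1.23 (-1.32 to -1.14) and Anxa2 -1.01 (-1.14 to -0.87). Of 12448 genes 3.19% were as low, and the median of all genes was 0.54. The S100a10 value was -0.80 (-0.97 to -0.63), that of Anxa5 -0.69 (-0.82 to -0.56) and that of S100a1 -0.53 (-0.56 to -0.49). The intervals of Anxa1 (-0.16 to 0.40) and Vim (-0.05 to 0.10) held 0. For 4 genes (S100a1, S100a6, S100a11 and Anxa5) the I/R over sham interval was above 0 in young and below 0 in aged mice, where 7.07% of 12449 genes and 57 of 81 ribosomal protein genes had that pair of signs. These counts are for scaling by total UMIs and are not given for gene-wise scaling. Under gene-wise scaling all 10 intervals of the aged minus young difference were below 0, Anxa1 at -0.47 and Vim at -0.56. That scaling lowers the difference of every gene by the same amount (Anxa1 from 0.12 and Vim from 0.03). The share of all genes below 0 under it is not given here, so the count is not read as a trait of the members.

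The age comparisons share libraries with those above, so their values are given beside them and not as separate evidence. In aged sham over young sham all 10 intervals were above 0, where 22.7% of genes had one above 0 and 45% one below, and 78 of 81 ribosomal protein genes were above 0. In the same comparison 2 members were at least 2-fold higher (Lgals3 at 2.15 and S100a4 at 1.20), where 1.57% of 12901 genes were. S100a6 was at 0.97 and S100a11 at 0.81, and the other members between 0.35 and 0.61. The members' median was 0.57 against -0.14 for all genes and 0.52 for ribosomal protein genes. In aged I/R over young I/R 0 of 10 were 2-fold higher or lower, where 16.8% of 13434 genes were higher and 0.863% lower. Anxa2 (-0.55), S100a11 (-0.51) and S100a10 (-0.43) were the lowest and Vim (0.56) and Anxa1 (0.54) the highest. The interval was above 0 for 2 members and below 0 for 7, where 67.2% of genes were above and 14.6% below, and the members' median was -0.22 against 0.43 for all genes.

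Markers of other cells moved with some of these values. The 10 neutrophil markers summed to 7.93 CPM in sham and 52.3 after I/R in young mice, and to 11.2 and 49.2 in aged mice, with none at 0. They were higher after I/R for 9 of 10 markers in young and 10 of 10 in aged mice, whereas S100a4, S100a6 and Lgals3 were not higher in the aged pair. In CPM the summed macrophage markers were not higher in young I/R (465 in sham and 387 after I/R) and were 604 and 649 in the aged pair. One by one, 8 of 20 were higher after I/R in young and 10 in aged mice. Summed fibroblast markers were lower after I/R at both ages (1599 and 1239, 2172 and 1587), with 1 and 3 of 18 higher. In the young pair the log2 ratios of these sums were -0.27 and -0.37, where the median of all genes was -0.44. Gene-wise scaling adds 0.49 to every ratio of that pair, more than either sum fell. The 5 markers of atrial cardiomyocytes, with 453, 1285, 926 and 457 CPM, had the order of S100a4, S100a6 and S100a10, lowest in young sham and highest in young I/R. Most of that was Nppa, the atrial natriuretic peptide gene (335, 1055, 821 and 379 CPM), and Bmp10 was at 0 in young I/R. Myl7, an atrial light chain, had 48.8, 97.6, 46.9 and 32.5 CPM, so it was higher in young I/R but not in aged sham. Myl4 (48.2, 87.2, 38.6 and 34.9) and Sln (21.3, 45.2, 18.9 and 11.2) had the same order as Myl7, lowest in aged I/R. The order of the sum was thus that of Nppa. The part of these cells in the members' values was not tested.

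The relatives of the 10 genes were counted from lists of the same families. Among other S100 genes, 4 of 11 had enough UMIs in the young pair and 5 in the aged pair, and 2 were at least 2-fold higher in each: S100a8 and S100a9, the calprotectin subunits of neutrophils. Their log2 ratios were 3.24 and 2.94 in young and 1.93 and 2.13 in aged mice. S100a13 was the lowest of the list in young mice (0.37) and S100a16 in aged mice (-0.83). Unlike those of S100a4 and S100a6, the ratios of S100a8 and S100a9 were well above 0 at both ages.

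Of the other annexins, 5 of 9 in the young and 8 of 9 in the aged pair had enough UMIs, and none was 2-fold higher or lower. Their ratios ran from -0.08 (Anxa3) to 0.41 (Anxa7) in young and from -0.40 (Anxa13) to 0.36 (Anxa7) in aged mice. Anxa2 stood above that range at both ages, at 1.41 in young and 0.41 in aged mice. In aged mice its interval (0.32 to 0.49) overlapped that of Anxa7 (0.28 to 0.44). In the galectin list 5 of 8 were counted, among them Lgals3bp, a binding protein of galectin-3 and not itself a galectin. Lgals4 (-1.30) and Lgals8 (-1.01) were 2-fold lower in young I/R, and Lgals1 was the highest at 0.45. In aged mice 0 of 5 passed 2-fold, between -0.83 (Lgals3bp) and 0.99 (Lgals8), and the lowest galectin was Lgals4 at -0.59. Of other intermediate filaments and lamins, 5 of 7 were counted in young mice, where Des, the desmin of muscle, had the highest ratio (0.96) and Synm (-1.19) was 2-fold lower. In aged mice 6 were counted, from -0.37 (Krt18) to 0.54 (Lmnb1), and none passed 2-fold.

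**Figure D3:**
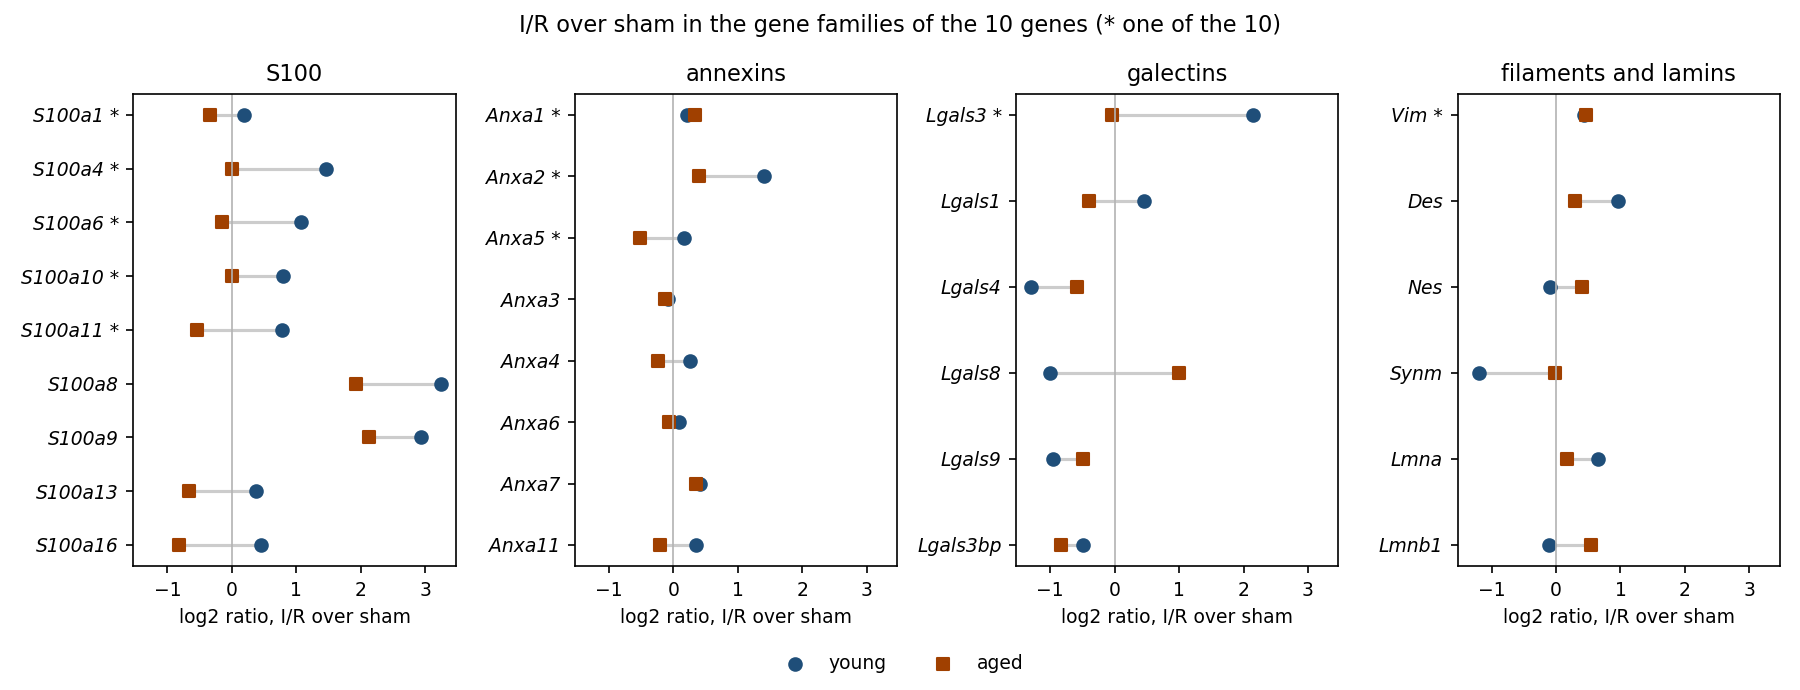
Log2 ratio of I/R over sham (x axis) for the genes of each family with enough UMIs in both pairs (y axis) in young (circles) and aged mice (squares), with an asterisk for the 10 genes. S100b, Anxa8, Anxa9, Anxa13 and Krt18, with enough UMIs in the aged pair only, are not shown. Lgals3bp, a binding protein of galectin-3, stands with the galectins though it is not one. Lgals3 lies at 2.15 in young and -0.04 in aged mice, whereas S100a8 and S100a9 lie between 1.93 and 3.24 at both ages.

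Receptors and partners of these proteins gave 1 gene 2-fold higher and 1 lower of 9 counted in young mice: Plaur, the urokinase receptor, at 2.48, and Plgrkt, a plasminogen receptor, at -1.42. In aged mice 1 of 11 was 2-fold higher, Ahnak at 1.04, the large scaffold bound by S100a10 and Anxa2, and Tmsb4x was the lowest at -0.96. Of 7 membrane repair genes, Cav3, the muscle caveolin, was at 1.41 in young mice and Trim72 (mitsugumin 53) at -0.71. In aged mice Trim72 was at 1.34 and Capns1 at -0.52. Cav3 and Trim72 were thus the single genes of the 7 past 2-fold higher in the young and the aged pair, where the shares of all genes were those given above.

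Cell classes were sought in the 241086 barcodes with at least 200 detected genes, with 42 genes of the S100, annexin and galectin families and Vim left out of the clustering. Of 14 clusters, 5 could be named from markers: fibroblast-like (30541 barcodes), macrophage-like (10757), atrial cardiomyocyte-like (11904), erythroid-like (11376) and endothelial-like (393). No ventricular cardiomyocyte cluster stood apart, and cardiomyocyte markers summed to 85334 to 110450 CPM in every named class and library, so every class held much muscle RNA.

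As means over the libraries, the members differed little between the larger named classes. The mean level over the 4 libraries in the fibroblast-, macrophage-, atrial- and erythroid-like classes ranged from 0.82 to 1.28 times that of all clustered barcodes, both ends in the macrophage-like class (S100a11 and Lgals3). The markers that define these classes were 1.72-fold to 36.7-fold above the other barcodes. That gap was in part built in, since the classes were named by these markers and the members were left out of the clustering. The denominators also differ, all clustered barcodes for the members and the other barcodes for the markers. Vim, a fibroblast gene, was between 1.03 and 1.09 times, and S100a1, a muscle gene, between 0.95 and 1.05 times, the erythroid-like class included. In single libraries the spread was wider: among sums of at least 20 UMIs the class level was 0.80 to 1.48 times that of all clustered barcodes in young sham, 0.61 to 1.504 in young I/R, 0.78 to 1.55 in aged sham and 0.84 to 1.29 in aged I/R. Of all 40 sums per library, 32 to 36 had an interval that held the level of all clustered barcodes. Among sums of at least 20 UMIs it was 13 of 18 in young sham and 32 of 37 in young I/R. In aged sham it was 32 of 38 and in aged I/R 36 of 40. Unnamed clusters went further, with S100a11 at 0.66 and S100a1 at 0.76 times in cluster 5 (27174 barcodes). In cluster 12 S100a4 was at 3.85 and S100a11 at 3.42 times, but 1439 of its 1505 barcodes came from aged I/R. Young sham, young I/R and aged sham gave 11, 33 and 22 barcodes and weigh the same in the mean. Over the libraries S100a4 ran from 0 to 121 CPM and S100a11 from 0 to 212, on 34 and 28 UMIs in all. The values of cluster 12 are therefore not read as a trait of its barcodes. The endothelial-like class held 5 UMIs of Anxa1 and 2 of Lgals3 and is not set beside the others. At resolution 2 it took 2 clusters with 20505 barcodes, where the members were at 0.93 (Lgals3) to 1.11 (Anxa2 and S100a10) times the level of all clustered barcodes.

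**Figure D4:**
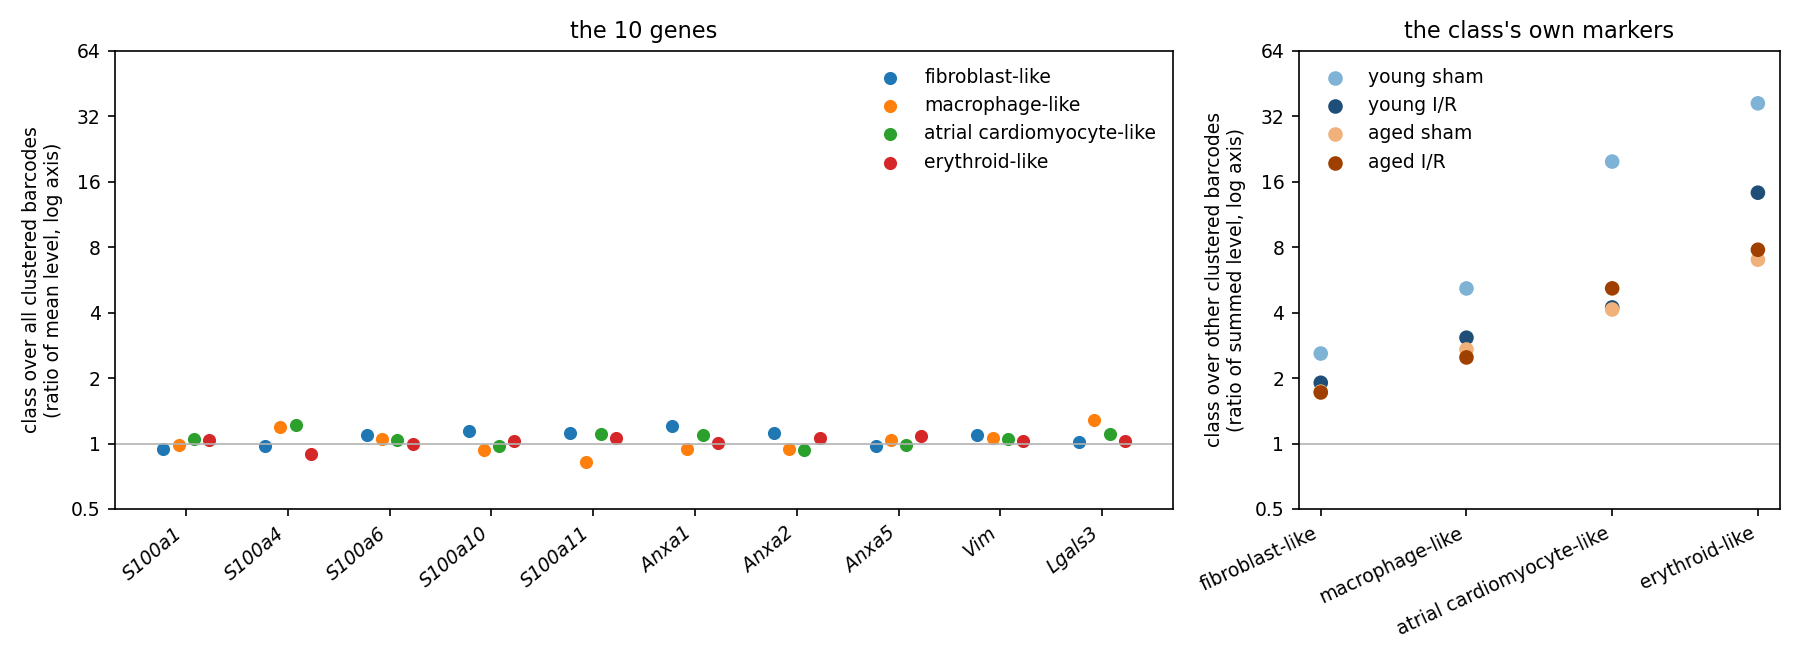
Left, mean level of each of the 10 genes in 4 cell classes over that in all clustered barcodes, and right, summed level of the markers of each class over the other barcodes, by library, both as ratios on a log axis. The 10 genes lie between 0.82 and 1.28, and the markers between 1.72 and 36.7. The classes were named by these markers, so the gap between the panels was in part built in.

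Erythroid-like barcodes, which should lack Vim and S100a1, held both at about the level of all barcodes, so the level in a class is not read here as expression by its cells. The young pair is given within classes only to show how far the sums of all barcodes recur there. In the fibroblast-like class 9 of 10 members were above 0, where 33.6% of genes were, and the exception was Anxa1 at -0.30 (-1.13 to 0.57). Of these 9, 7 had an interval above 0, a count for which no share of all genes in the class was computed. In the macrophage-like class 8 of 10 were above 0 (46.6% of genes), with Anxa5 at -0.39 and Vim at -0.10, and in the atrial cardiomyocyte-like class 8 of 10 (46.9% of genes), with Anxa5 at -0.34 and Anxa1 at -0.05. In the erythroid-like class 8 of the 9 members with UMIs in both libraries were above 0 (49.3% of genes). Intervals lay above 0 for 5 members in the macrophage-like, 5 in the atrial cardiomyocyte-like and 4 in the erythroid-like class. The 4 include Lgals3, with 0 UMIs in young sham, and no share of all genes was computed for these counts. Shares within classes, in either pair, cover genes with at least 100 UMIs over the 2 libraries. Some members fell below that, such as Anxa1 in the macrophage-like class (10 UMIs in young I/R and 2 in young sham), so the shares are only a rough guide. The endothelial-like class had UMIs of 4 members in both libraries, 2 of them above 0, where 81.4% of 43 genes were above 0.

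Anxa2 had 36.9 CPM in sham and 90.3 after I/R in fibroblast-like barcodes of young mice (log2 ratio 1.29, 0.87 to 1.74). In macrophage-like barcodes it had 8.90 and 80.8 CPM (3.18, 1.78 to 5.08), where young sham held 4 UMIs, and with Leiden resolution 2 the young sham level was 24.0 CPM. In erythroid-like barcodes it had 49.7 and 78.6 CPM, with an interval that held 0 (0.66, -0.08 to 1.49). S100a6 had intervals above 0 in all 3, at 0.71 (0.43 to 0.99), 1.58 (1.003 to 2.22) and 1.03 (0.42 to 1.71), the erythroid-like class last. In the aged pair 4 of 10 members were above 0 in the fibroblast-like (57.6% of genes) and the macrophage-like class (59.9% of genes), Vim at 0.47 (0.34 to 0.60) and 0.54 (0.33 to 0.76). Vim was also at 0.36 (0.15 to 0.57) in the erythroid-like class, and the classes were not tested against each other.

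The 1% of barcodes with the most UMIs gave a lower CPM of the members than the rest in 34 of 40 pairs of gene and library. The same count was not made for all genes, so it is not read as a trait of the members. For S100a1 it was 0.56 to 0.89 times the level in the other barcodes, and for Vim 0.54 to 0.85 times. Anxa1 (0.54 to 1.38) and Anxa5 (0.81 to 1.36) went either way. Few UMIs stand behind these values, for example 3 of Lgals3 in young sham.

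Over the 56 sums by cluster and library, the gene whose log2(CPM + 10) was most like that of S100a1 among 9299 genes was Rps29 (Pearson's r = 0.98), followed by Bsg and Atp5d (0.97 each). The closest gene was Exosc4 for S100a10 (0.93), Eloc for Anxa5 (0.93), Sra1 for Anxa2 (0.90), Rpl6 for Vim (0.89), Jup for S100a6 (0.88), Tmem186 for Anxa1 (0.87), Ncaph2 for S100a11 (0.83), Ap4s1 for S100a4 (0.82) and Cstb for Lgals3 (0.81). No member was among the 3 genes closest to another. Some of the 56 sums were very small, such as the 2 barcodes of cluster 14 in young sham. With the 42 sums of at least 500 barcodes, a choice made after the values were seen, the closest gene changed for every member. It was Myl3 for S100a1 (0.94), Adgrg1 for S100a4, Rps23 for S100a6, Cnbp for S100a10 and Smim7 for S100a11. For Anxa1, Anxa2, Anxa5, Vim and Lgals3 it was Spcs2, Fhl1, Fcer1g, Eif3e and Eef1a1. Of the closest genes named above, only Rps29 stayed among the 3 closest. S100a6 was the second closest to S100a4 (0.89) and Vim the third closest to Anxa1 (0.75). The points share libraries and depth, and these are descriptions only.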

How the data were processed

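Left ventricle libraries (10x Chromium 3', 1 per condition) were analysed from the filtered matrices that the authors deposited, in which each value is a raw UMI count per gene and barcode. Per the submitters' processing notes the reads were processed with Cell Ranger 6.0.2 on mm10. Whether intronic reads were counted is not given in the sources used here. Groups were taken from the labels.

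The members and the related gene lists were chosen with earlier results of these data known. UMIs were summed over all barcodes and scaled to 1000000 UMIs (CPM). Levels carry exact Poisson intervals, ratios exact conditional binomial intervals, and differences of ratios a normal approximation, all at 95% and for counting error only. Genes with at least 100 UMIs over the 2 libraries were compared, and at least 2-fold was counted. There were no replicates, hence no tests. All members are named, with the highest and lowest gene of each related list per I/R comparison. Other genes (S100a8, S100a9, S100a13, S100a16 where not at an end of the list, Atp2a2, Lgals8, Nppa, Bmp10 and Myl7) were named after their values were seen. The same holds for Lgals4 in the aged pair and for the markers Ccr2, Tyrobp, Mrc1, Csf1r, Ngp, Camp, Ltf, Myl4 and Sln.

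Barcodes with at least 200 genes were clustered with scanpy 1.11.5 and igraph 0.11.9 (2000 variable genes, 10 principal components, 20 neighbours, Leiden resolution 1, scaled within library). Variable genes were ranked by variance above Poisson within libraries. A name needed at least 4 markers at 1.5-fold or more, and both this rule and the ranking were set after a first clustering was seen. Doublets were not removed. Python 3.11.15, numpy 2.4.6, scipy 1.17.1, pandas 2.3.3 and matplotlib 3.10.9 were used. The ratio intervals were checked on simulated Poisson counts, which hold no variation between libraries or mice. Gene positions came from GENCODE annotation of GRCm38, promoters from RefSeq (GRCm38.p6, found for 9 of 10 members, S100a10 without an entry). The shares of all genes by interval and within classes, the class levels by library and the endothelial-like values at resolution 2 were added after the values were seen.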

Additional observations from a re-analysis of the deposited data

Results flagged for a closer look

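For 4 of the 10 genes the I/R over sham ratio lay above 0 in young mice and below 0 in aged mice, each beyond its counting interval, where 7.07% of 12449 genes had that pair of signs. That share is for scaling by total UMIs. Gene-wise scaling moves every ratio by 0.49 in the young and -0.10 in the aged pair, and the share under it is not given here. The aged minus young difference of log2 ratios was -0.53 for S100a1 (0.19 in young and -0.33 in aged mice), -1.23 for S100a6 (1.07 and -0.16), -1.32 for S100a11 (0.78 and -0.54) and -0.69 for Anxa5 (0.17 and -0.52). With 1 library per condition the difference was not tested. Among other S100 genes S100a13 (0.37 and -0.67) and S100a16 (0.46 and -0.83) had the same pair of signs. Ribosomal protein genes had medians of 0.41 and -0.20 in the same comparisons, 57 of 81 had the same pair of signs beyond their intervals, and their part in these values was not tested.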

How the results depend on the processing

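No paired analysis was possible because each condition had 1 library. No ratio whose counting interval lay clear of 0 changed direction under the alternatives run, and 3 ratios whose interval held 0 changed sign under thinning or without the top 1% of barcodes (S100a4 and Lgals3 in aged I/R over aged sham and Lgals3 in aged I/R over young I/R). Under scaling by the median of gene-wise ratios the median log2 ratio of the members was 1.28 in young I/R over young sham, 0.72 in aged sham over young sham and -0.66 in aged I/R over young I/R, and the members at least 2-fold higher numbered 6 in the first, 3 in the second and 0 in the third of these. No share of all genes past 2-fold is given under that scaling. These counts are therefore not read as a trait of the members. This scaling shifts every ratio by 0.49, 0.14 and -0.44 in the same order, and by -0.10 in aged I/R over aged sham. With barcodes of at least 200 genes only, the median in aged sham over young sham was 0.70. With the total taken without Gm42418, Malat1, mitochondrial and hemoglobin genes, that in aged I/R over young I/R was -0.38. Leaving out the top 1% of barcodes moved none of the 40 member ratios beyond its interval. Those barcodes held 845317 of 25836175 UMIs in young sham and 1886452 of 66767829 in aged I/R, so this choice could move the ratios little. Thinning to 200 UMIs, which leaves out 28.1% of young sham and 0% of aged I/R barcodes, moved 6 of the 40. Gene-wise scaling moved 30 of the 40, the smaller total 22 and the barcodes of at least 200 genes 11. Leiden resolution 2 moved 7 of 200 class levels and took the endothelial-like class from 393 to 20505 barcodes. Depth limits Lgals3 and S100a4 in young sham most, and the lack of replicates limits every value.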
